A study of Homo sapiens with 54 samples.

Results

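Messenger RNA of ESR2, the gene of estrogen receptor beta, and of 5 classical estrogen target genes, GREB1, PGR, MYBL1, MYB and CA12, was followed in 3 human prostate cancer cell lines given estradiol or OSU-ERb-12, a ligand made to activate estrogen receptor beta. The genes were chosen by name, as the receptor and targets known from breast cancer cells, with earlier results of these data known. They are 6 of the 19225 genes in the table. GREB1 had the largest rise: estradiol raised it in all 3 lines, and OSU-ERb-12 at the same dose and time moved neither GREB1 nor any other of the 6 genes past the test in any line. PGR was lower with estradiol in C4-2 and LNCaP and MYB in LNCaP, MYBL1 was higher in all 3 lines (least firmly in 22Rv1), and CA12 was higher in 22Rv1 but lower in C4-2 and LNCaP.

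Estrogen receptors are nuclear receptors that bind estradiol, attach to DNA at estrogen response elements or through other factors, and recruit coactivators to nearby genes. The response element is a palindrome of a pair of GGTCA half-sites, and the elements that drive a gene often lie far from its start. In estrogen receptor positive breast cancer cells, GREB1 and PGR are standard readouts of the receptor, and MYB, MYBL1 and CA12 are induced as well. In prostate cancer cells GREB1 is also known as an androgen-responsive gene. C4-2 is a derivative of LNCaP, and 22Rv1 is of separate origin.

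The libraries came from 22Rv1, C4-2 and LNCaP, and each line was given 6 treatments for 12 h: 100 nM OSU-ERb-12 with 1 µM enzalutamide (OSU+Enza), 100 nM estradiol with 1 µM enzalutamide (E2+Enza), OSU-ERb-12 alone (OSU), estradiol alone (E2), enzalutamide alone (Enza), or ethanol vehicle. Enzalutamide is an antiandrogen used to treat prostate cancer. All groups grew in RPMI medium with 10% fetal bovine serum, and the labels state neither hormone stripping nor another genotype than wild type. The titles mark the OSU groups by the letters WT, so that they received OSU-ERb-12 rests on the treatment labels. Each of the 18 groups has 3 libraries, biological triplicates per the labels, 54 in all.

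Levels are given as CPM, library-size scaled read counts, on the authors' effective library sizes, decoded from the deposited values. Libraries held 32819568 to 52417050 reads in genes, so that 1 read was worth 0.0204 to 0.0323 CPM and a floor of 3 reads 0.0611 to 0.0968 CPM. All 8 luminal prostate markers averaged over 1 CPM in every line, while the basal keratins KRT14 and KRT6A and the leukocyte marker CD14 averaged under 1 CPM. Of 3 fibroblast markers COL3A1 and LUM averaged under 1 CPM, and COL1A1 ranged from 2.12 to 3.77 CPM in 22Rv1, 7.15 to 10.8 CPM in C4-2 and 14.5 to 20.2 CPM in LNCaP; its part in the differences between lines was not tested. Earlier results picked out 4 libraries that stand apart: C4-2 vehicle 1, whose cell line tag reads 22Rv1 although its correlation was 0.9982 with the C4-2 mean and 0.8496 with the 22Rv1 mean, C4-2 E2 3, 22Rv1 vehicle 3 and 22Rv1 OSU+Enza 2. Mitochondrial ribosomal RNA made up 0.149% of reads in C4-2 E2 3, against 0.0139 to 0.0599% in the other C4-2 libraries, and 0.196% in 22Rv1 vehicle 3, against 0.00841 to 0.0974% in the other 22Rv1 libraries. The part of these differences in the results was not tested beyond leaving out the libraries.

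ESR2 lies on chromosome 14 (64226707 to 64338613, minus strand), GREB1 on chromosome 2 (11482888 to 11642788, plus strand) and PGR on chromosome 11 (101029624 to 101129813, minus strand) of GRCh38.p14. MYB lies on chromosome 6 (135181308 to 135219172, plus strand) and CA12 on chromosome 15 (63321378 to 63381846, minus strand). Each value counts reads of a whole gene, and RefSeq places other RNA genes over parts of ESR2, GREB1, PGR, MYB and CA12, among them PGR-AS1 antisense to PGR. The library kit keeps strand, but whether counting used it is not given in the sources used here, so reads of a gene and an overlapping partner cannot be told apart.

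The RefSeq promoter windows, from 250 bases before to 50 bases after a gene's start, covered 4 of the 6 genes with 10 windows, and GREB1 and MYBL1 have no window there. The full palindrome, GGTCA and its reverse complement with any 3 bases between them, was in none of the 10 windows, and in 20 of the 35116 windows of all genes (0.057%). A half-site, GGTCA on either strand (TGACC on the printed strand), was in 6 of the 10 windows, and in 13125 of all windows (37.4%). The PGR windows with a half-site overlap and share the same one, and the ESR2 windows with 2 share the same pair. The 6 windows are thus not 6 separate sites, and the share is not compared with that of all windows. The androgen response element, taken as AGAACA and its reverse complement with any 3 bases between them, was in none of the 10 and in 1 of all windows (0.00285%). The 250 bases before a start of PGR, which fell with estradiol, and of CA12, which moved in opposite directions in different lines, are shown 5′ to 3′ on the gene's strand with the half-site in capitals. A match is only these letters in this window, with no binding measured.
PGR (chr11:101129078-101129327, minus strand): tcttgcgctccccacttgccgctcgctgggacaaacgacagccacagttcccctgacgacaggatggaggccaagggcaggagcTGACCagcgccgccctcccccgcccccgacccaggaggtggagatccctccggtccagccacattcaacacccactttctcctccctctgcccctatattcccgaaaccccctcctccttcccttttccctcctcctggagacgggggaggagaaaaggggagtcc
CA12 (chr15:63381847-63382096, minus strand): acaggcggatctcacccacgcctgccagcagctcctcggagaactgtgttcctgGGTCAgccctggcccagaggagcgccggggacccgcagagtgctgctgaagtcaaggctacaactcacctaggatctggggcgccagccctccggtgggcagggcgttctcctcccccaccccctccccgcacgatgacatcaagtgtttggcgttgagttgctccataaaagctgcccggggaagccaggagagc
In the PGR sequence the half-site began at position -166 and in the CA12 sequence at -196, with -1 as the last base before the start. The PGR window at the outer end of the gene's span (101129764 to 101130063) held no half-site, so the printed PGR sequence stands for another start of the gene. A window of MYB held no half-site, and the 5 windows of ESR2 held 0, 1, 0, 2 and 2.

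Per kilobase of the GENCODE v44 canonical transcript, the only scale here on which levels of different genes are compared, ESR2 and PGR had the lowest mean levels of the 6 genes in every line with vehicle. In 22Rv1 the order was MYB at 4.62 ± 0.178, MYBL1 at 3.89 ± 0.415, CA12 at 3.35 ± 0.232, GREB1 at 0.833 ± 0.0374, ESR2 at 0.338 ± 0.0408 and PGR at 0.00576 ± 0.00214 CPM per kilobase (mean ± SD, n = 3). In C4-2 it was CA12 at 8.83 ± 0.346, MYBL1 at 4.52 ± 0.0774, GREB1 at 1.87 ± 0.0375, MYB at 1.84 ± 0.27, ESR2 at 0.281 ± 0.0146 and PGR at 0.109 ± 0.0274. In LNCaP it was CA12 at 4.55 ± 0.204, MYBL1 at 2.11 ± 0.142, GREB1 at 2.09 ± 0.228, MYB at 1.5 ± 0.165, ESR2 at 0.316 ± 0.0686 and PGR at 0.0705 ± 0.0253. The neighbours MYBL1 and CA12 in 22Rv1, GREB1 and MYB in C4-2, and MYBL1 and GREB1 in LNCaP did not differ beyond their spread.

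ESR2, the receptor gene, was low but above the floor in every library: it had over 1 CPM in 54 of 54 libraries, on 47 to 134 reads each. In 22Rv1 it measured 3.08, 2.79 and 2.81 CPM with OSU+Enza, 1.33, 2.65 and 1.97 CPM with E2+Enza, 2.36, 2.66 and 2.72 CPM with OSU, 2.29, 1.97 and 1.68 CPM with E2, 2.25, 1.71 and 2.4 CPM with Enza, and 2.04, 2.6 and 2.29 CPM with vehicle. In C4-2 it measured 1.85, 1.38 and 1.65 CPM with OSU+Enza, 1.77, 2.38 and 1.5 CPM with E2+Enza, 1.64, 1.34 and 1.31 CPM with OSU, 2.15, 1.81 and 2.18 CPM with E2, 1.74, 2.43 and 1.87 CPM with Enza, and 1.81, 1.98 and 1.98 CPM with vehicle. In LNCaP it measured 1.46, 1.49 and 1.93 CPM with OSU+Enza, 1.6, 2.34 and 1.77 CPM with E2+Enza, 2.18, 1.9 and 1.9 CPM with OSU, 1.86, 1.95 and 1.56 CPM with E2, 1.93, 1.61 and 1.22 CPM with Enza, and 2.26, 2.57 and 1.65 CPM with vehicle. The E2 libraries overlapped the vehicle libraries in all 3 lines. The C4-2 OSU libraries lay below the vehicle libraries without overlap, and the 22Rv1 OSU+Enza libraries above the Enza libraries.

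With all libraries of a line fitted, no ESR2 difference between treatments passed the test, which was limma on log2(CPM + 0.5) with Benjamini-Hochberg adjustment over all genes tested; differences at an adjusted p under 0.05 are called. The pseudocount of 0.5 CPM understates changes of low genes on this log2 scale, and fewer expressing cells and less RNA per cell cannot be told apart in bulk RNA. With E2 the ESR2 log2 fold change against vehicle was -0.18 ± 0.16 (SE) in 22Rv1 (adjusted p = 0.408), 0.07 ± 0.15 in C4-2 (adjusted p = 0.822) and -0.2 ± 0.16 in LNCaP (adjusted p = 0.381). With OSU in C4-2 it was -0.33 ± 0.15 (95% interval -0.64 to -0.02, adjusted p = 1). Enza and OSU+Enza against vehicle in LNCaP did not pass (-0.35 and -0.31), but did without LNCaP vehicle 3 (-0.49, adjusted p = 0.0328, and -0.46, adjusted p = 0.0379). Closest to the threshold was OSU+Enza against E2+Enza in 22Rv1, with 0.49 ± 0.16 (adjusted p = 0.0542). It passed in the alternatives with a pseudocount of 2 CPM (adjusted p = 0.0489), scaling to total reads (adjusted p = 0.0478) and 1 fit of all 54 libraries (adjusted p = 0.0314), and without E2+Enza library 2 (0.68, adjusted p = 0.008).

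GREB1, an early estrogen response gene whose protein binds estrogen receptors, was above the floor in all libraries, at 4.7 to 56.1 CPM on 186 to 2443 reads. In 22Rv1 it measured 4.73, 4.9 and 5.15 CPM with OSU+Enza, 7.35, 8.24 and 7.85 CPM with E2+Enza, 7.74, 7.5 and 7.49 CPM with OSU, 11.4, 12 and 12 CPM with E2, 6.35, 6.21 and 6.52 CPM with Enza, and 6.9, 6.98 and 7.49 CPM with vehicle. In C4-2 it measured 8.42, 8.02 and 7.16 CPM with OSU+Enza, 19.2, 19.5 and 17.3 CPM with E2+Enza, 16.4, 16.3 and 14.9 CPM with OSU, 31.3, 29.8 and 35.4 CPM with E2, 8.08, 8.44 and 8.2 CPM with Enza, and 15.9, 16.3 and 15.7 CPM with vehicle. In LNCaP it measured 5.71, 4.7 and 6.99 CPM with OSU+Enza, 30.2, 27.1 and 27 CPM with E2+Enza, 17.7, 18.2 and 17.6 CPM with OSU, 50.5, 48.7 and 56.1 CPM with E2, 5.89, 6.59 and 5.75 CPM with Enza, and 20.1, 16.3 and 17.3 CPM with vehicle. In all 3 lines the E2 libraries were the highest and overlapped no other group. The Enza libraries lay below the vehicle libraries in every line, by least in 22Rv1.

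**Figure D1:**
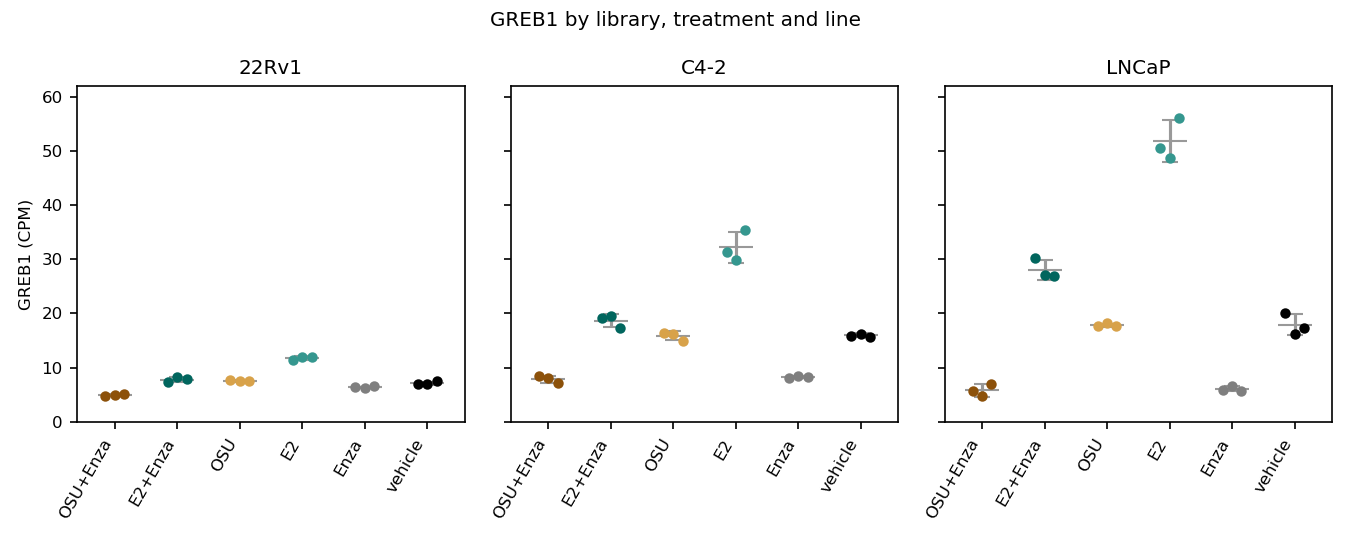
GREB1 in CPM in each library (points), by line (panels) and treatment (x axis), with the group mean and SD in grey (n = 3). The E2 libraries are highest in each line, at 11.4 to 12 CPM in 22Rv1, 29.8 to 35.4 CPM in C4-2 and 48.7 to 56.1 CPM in LNCaP, and the OSU libraries lie near the vehicle libraries.

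GREB1 rose with E2 in each line, to mean levels 1.66 times those with vehicle in 22Rv1, 2.01 times in C4-2 and 2.9 times in LNCaP. The log2 fold changes were 0.69 ± 0.08 (adjusted p = 2.87e-07), 0.98 ± 0.07 (adjusted p = 5.94e-10) and 1.51 ± 0.09 (adjusted p = 4.77e-13) in the same order of lines. E2+Enza against Enza raised it by 0.28 ± 0.08 in 22Rv1 (adjusted p = 0.0328), 1.13 ± 0.07 in C4-2 (adjusted p = 2.37e-11) and 2.12 ± 0.09 in LNCaP (adjusted p = 2.32e-16), 4.63 times on the mean CPM in LNCaP. Enza alone lowered it by a log2 fold change of -0.92 ± 0.07 in C4-2 (adjusted p = 2.04e-09) and -1.48 ± 0.09 in LNCaP (adjusted p = 1.64e-12). The 22Rv1 value with Enza, -0.15, did not pass (adjusted p = 0.388). The 22Rv1 rise over Enza did not pass with scaling to total reads (adjusted p = 0.0678), nor in 5 of the fits that left out 1 library (adjusted p = 0.0538 to 0.134).

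PGR, the progesterone receptor gene, was at the detection floor in 22Rv1 and low in the other lines. In 22Rv1 it had 0 to 6 reads per library, with 0 reads in 7 and at most 3 reads in 11 of 18 libraries. It did not pass the filter of 1 CPM in at least 3 libraries there, so 22Rv1 gives no treatment test for PGR. In C4-2 it measured 2.32, 2.09 and 3.03 CPM with OSU+Enza, 0.692, 1.43 and 1.43 CPM with E2+Enza, 1.64, 2.06 and 1.69 CPM with OSU, 0.526, 0.627 and 0.728 CPM with E2, 2.89, 3.05 and 3.39 CPM with Enza, and 1.06, 1.78 and 1.42 CPM with vehicle. In LNCaP it measured 2.28, 1.62 and 2.14 CPM with OSU+Enza, 0.222, 0.671 and 0.752 CPM with E2+Enza, 0.655, 0.861 and 0.849 CPM with OSU, 0.247, 0.0855 and 0.207 CPM with E2, 2.22, 2.66 and 2.06 CPM with Enza, and 0.538, 1.12 and 1.1 CPM with vehicle. The E2 libraries lay below the vehicle libraries and the Enza libraries above them, without overlap in either line. The LNCaP E2 libraries held 4 to 11 reads of PGR, and in LNCaP the gene passed the filter only through the Enza, OSU+Enza and vehicle libraries.

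PGR fell with E2 to 0.442 times the mean level with vehicle in C4-2 and 0.195 times in LNCaP. The log2 fold changes were -0.75 ± 0.18 in C4-2 (adjusted p = 0.00955) and -1.04 ± 0.2 in LNCaP (adjusted p = 0.000236), on a scale that the pseudocount shrinks. Over the alternatives they ran between -1.15 and -0.38 in C4-2 and between -2.32 and -0.42 in LNCaP. The C4-2 fall did not pass without C4-2 vehicle 2 (-0.62, adjusted p = 0.083) or without C4-2 E2 1 (-0.69, adjusted p = 0.0531). Enza raised PGR by 0.93 ± 0.18 in C4-2 (adjusted p = 0.00134) and 1.01 ± 0.2 in LNCaP (adjusted p = 0.000536), that is 2.19 and 2.52 times on the mean CPM. E2+Enza lowered it against Enza, at -1.13 ± 0.18 in C4-2 (adjusted p = 9.1e-05) and -1.46 ± 0.2 in LNCaP (adjusted p = 2.04e-06). In both lines PGR thus stood opposite to GREB1 in the E2, Enza and E2+Enza contrasts, which share libraries.

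MYBL1 encodes a transcription factor of the MYB family, also known as A-MYB, from chromosome 8 (66562175 to 66613218, minus strand, GRCh38.p14), and was measured on 404 to 1533 reads per library. In 22Rv1 it had 22.3, 23.3 and 23.1 CPM with E2, against 18.4, 19.4 and 22.5 CPM with vehicle. In C4-2 it had 33.8, 34.3 and 33.3 CPM with E2, against 23.7, 22.9 and 23.3 CPM with vehicle. In LNCaP it had 19.9, 21.2 and 21.3 CPM with E2, against 11, 11.5 and 10.1 CPM with vehicle. The E2 and vehicle groups overlapped in 22Rv1 and were apart in C4-2 and LNCaP. MYBL1 rose with E2 by a log2 fold change of 0.19 ± 0.07 in 22Rv1 (adjusted p = 0.0472), 0.53 ± 0.06 in C4-2 (adjusted p = 5.59e-07) and 0.91 ± 0.08 in LNCaP (adjusted p = 1.2e-09). The 22Rv1 rise did not pass without a filter (adjusted p = 0.0715), with scaling to total reads (0.13, adjusted p = 0.243), or without 22Rv1 vehicle 1 or 2 or any of the 3 E2 libraries (adjusted p = 0.0745 to 0.255).

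In the presence of enzalutamide MYBL1 measured 23.8, 24.6 and 24.6 CPM with E2+Enza, against 18.1, 18.2 and 20.8 CPM with Enza in 22Rv1. In C4-2 it measured 25.8, 24.4 and 27.1 CPM with E2+Enza, against 20.4, 19.2 and 19.5 CPM with Enza. In LNCaP it measured 14.5, 12.1 and 12.2 CPM with E2+Enza, against 9.75, 10.2 and 10.3 CPM with Enza. These groups overlapped in no line, and the rise passed in 22Rv1 (0.35 ± 0.07, adjusted p = 0.0012), C4-2 (0.38 ± 0.06, adjusted p = 5.83e-05) and LNCaP (0.34 ± 0.08, adjusted p = 0.00289). Enza alone lowered MYBL1 in C4-2, at -0.24 ± 0.06 (adjusted p = 0.0108). That call was lost without C4-2 vehicle 1 (-0.22, adjusted p = 0.0527), without C4-2 Enza 2 (-0.22, adjusted p = 0.0631) and without the 4 libraries that stand apart (-0.22, adjusted p = 0.0523).

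MYB, the c-Myb transcription factor gene, responded in LNCaP and not past the test to E2 or Enza in the other lines. In LNCaP it measured 6.74, 7.55 and 6.14 CPM with OSU+Enza, 4.43, 4.78 and 3.69 CPM with E2+Enza, 6.44, 6.89 and 7.29 CPM with OSU, 3.25, 3.4 and 3.24 CPM with E2, 9.34, 7.5 and 7.59 CPM with Enza, and 5.88, 5.86 and 4.82 CPM with vehicle. In C4-2 it measured 6.29, 5.4 and 6.1 CPM with E2, 8.29, 7.32 and 6.87 CPM with Enza, and 6.09, 6.36 and 7.93 CPM with vehicle. In 22Rv1 it measured 16.5, 17.2 and 17.2 CPM with E2, 18.7, 19.3 and 15.6 CPM with Enza, and 16.8, 16.6 and 17.8 CPM with vehicle. The LNCaP E2 libraries were the lowest of the 54, while in 22Rv1 and C4-2 both the E2 and the Enza libraries overlapped the vehicle libraries. MYB fell with E2 in LNCaP, at -0.66 ± 0.11 (adjusted p = 3.33e-05) and with E2+Enza against Enza, at -0.85 ± 0.11 (adjusted p = 6.94e-07), and it rose with Enza by 0.52 ± 0.11 (adjusted p = 0.000951). The E2 values in the other lines were 0 ± 0.07 in 22Rv1 (adjusted p = 0.973) and -0.18 ± 0.1 in C4-2 (adjusted p = 0.315).

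CA12, a membrane carbonic anhydrase that hydrates carbon dioxide outside the cell, went opposite ways with E2 in different lines. In 22Rv1 it measured 27.6, 28.5 and 27 CPM with E2, 22.7, 23.7 and 20.5 CPM with Enza, and 19.1, 20.4 and 21.9 CPM with vehicle. In C4-2 it measured 46.3, 45.1 and 45 CPM with E2, 62.3, 62.4 and 63.9 CPM with Enza, and 51.5, 55.5 and 54.6 CPM with vehicle. In LNCaP it measured 22.1, 22.6 and 20.6 CPM with E2, 30.3, 31.1 and 33.3 CPM with Enza, and 27.2, 26.9 and 29.2 CPM with vehicle. The E2 and vehicle groups were apart in all 3 lines, with E2 on top in 22Rv1 and at the bottom in C4-2 and LNCaP. CA12 rose with E2 by 0.43 ± 0.06 in 22Rv1 (adjusted p = 1e-05), and fell by a log2 fold change of -0.24 ± 0.05 in C4-2 (adjusted p = 0.00254) and -0.34 ± 0.05 in LNCaP (adjusted p = 1.31e-05). It rose with Enza by 0.22 ± 0.05 in C4-2 (adjusted p = 0.00542) and 0.18 ± 0.05 in LNCaP (adjusted p = 0.0169). These were lost without C4-2 vehicle 1 (0.19, adjusted p = 0.0501), and without LNCaP vehicle 1, LNCaP vehicle 2 or LNCaP Enza 3 (adjusted p = 0.0654, 0.0764 and 0.114).

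**Figure D2:**
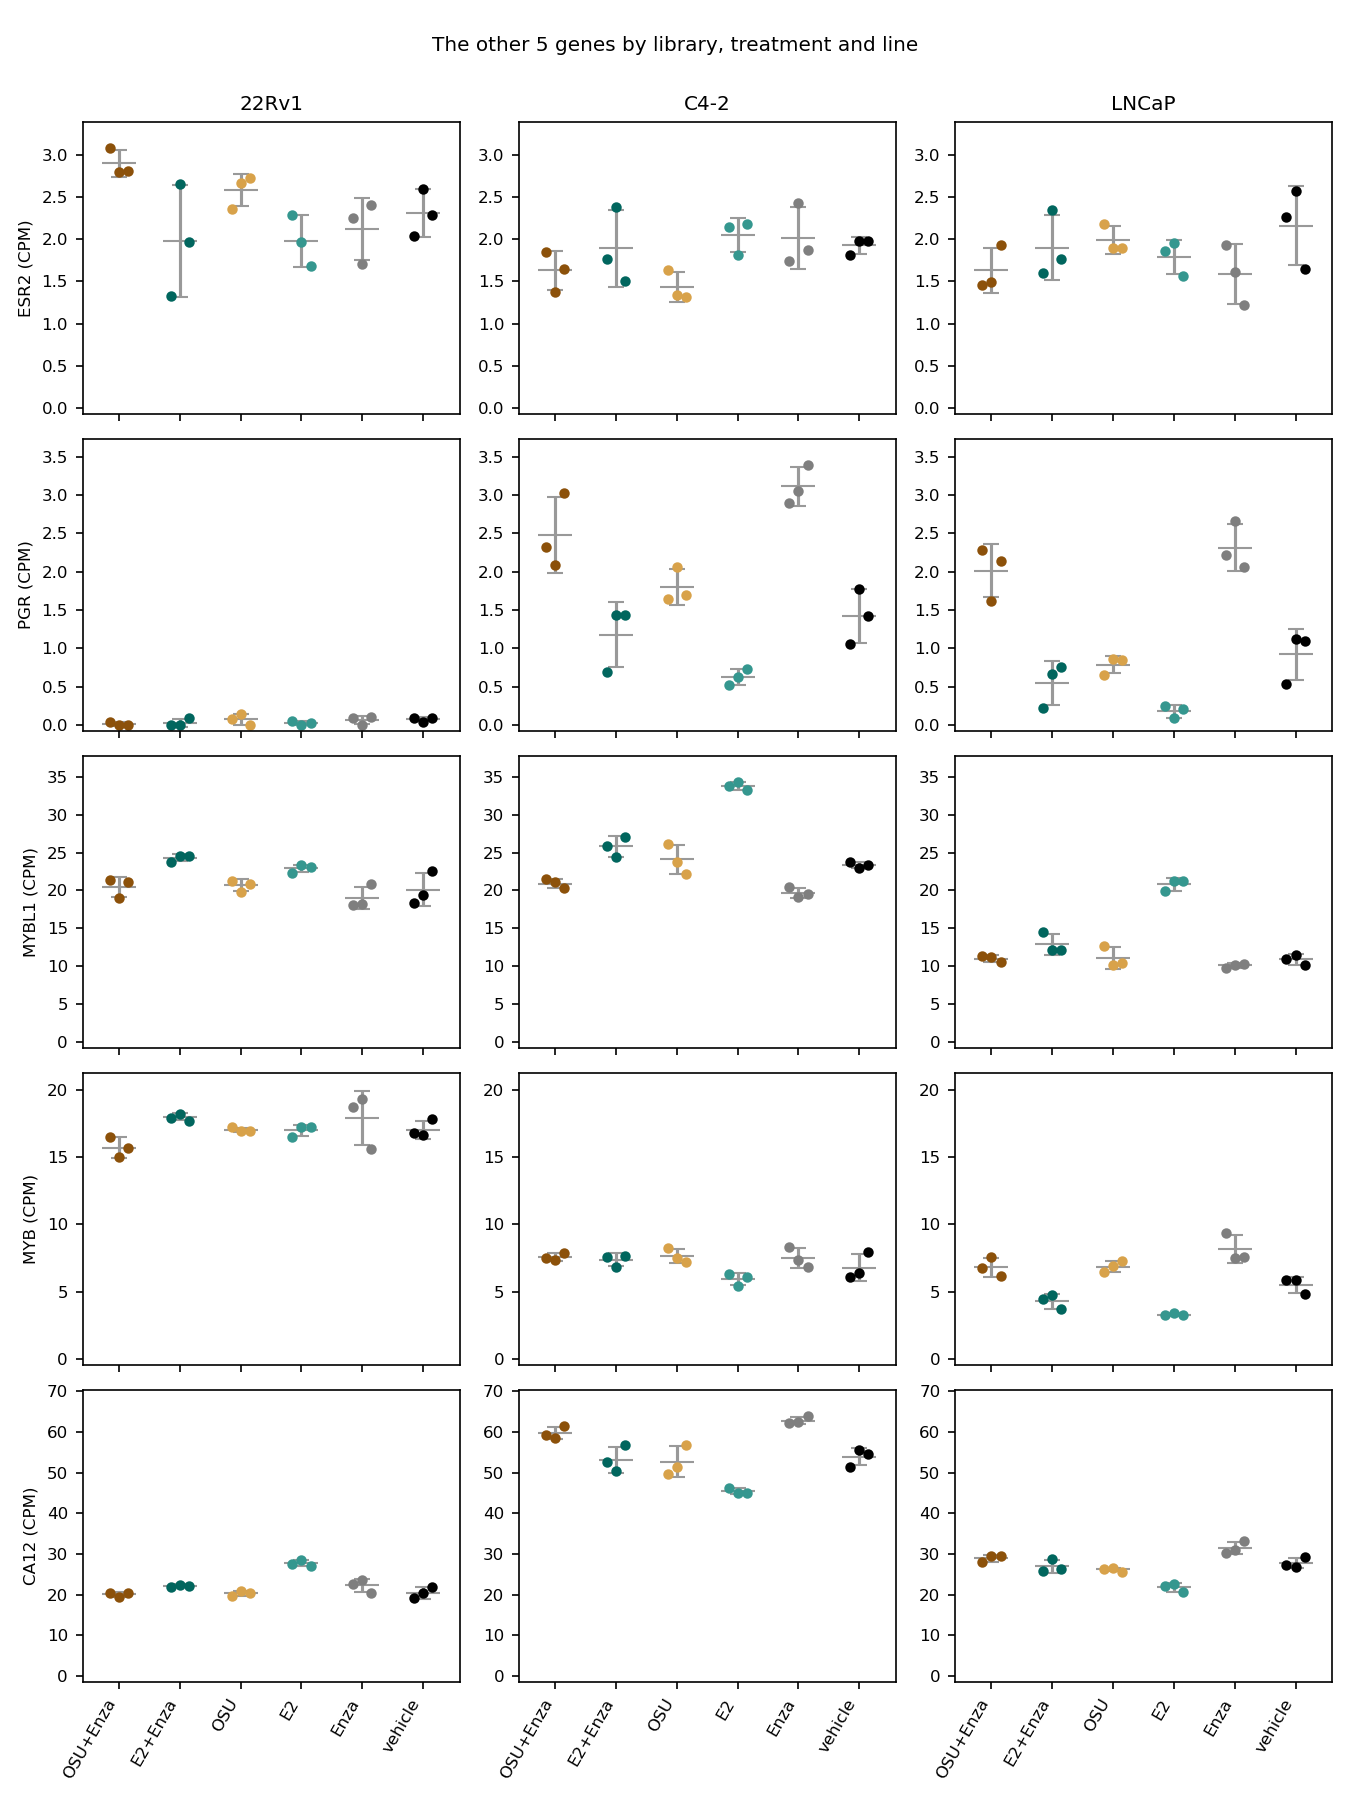
ESR2, PGR, MYBL1, MYB and CA12 (rows) in CPM in each library (points), by line (columns) and treatment (x axis), with the group mean and SD in grey (n = 3). PGR lies at 0 to 6 reads in 22Rv1, and CA12 with E2 is above vehicle in 22Rv1 and below it in C4-2 and LNCaP.

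Among the 6 genes, E2 raised 3 and lowered 0 of the 5 tested in 22Rv1 (GREB1, CA12 and MYBL1), where 27.7% of the 14866 genes tested were called (17.1% higher and 10.6% lower). In C4-2 E2 raised GREB1 and MYBL1 and lowered PGR and CA12, 4 of 6, where 5.82% of 14027 genes were called (2.72% higher and 3.11% lower). In LNCaP it raised GREB1 and MYBL1 and lowered PGR, MYB and CA12, 5 of 6, where 24.9% of 14251 genes were called (13.3% higher and 11.6% lower). ESR2 was the member that passed in no line. Enza called 0 of 5 in 22Rv1 (0.659% of all genes), 4 of 6 in C4-2 (8.44%) and 4 of 6 in LNCaP (20.4%). E2+Enza against Enza called 2 of 5 in 22Rv1 (7.94% of all genes), 4 of 6 in C4-2 (7.38%) and 5 of 6 in LNCaP (23.1%), and CA12 was -0.24 ± 0.05 in C4-2 (adjusted p = 0.00214) and -0.22 ± 0.05 in LNCaP (adjusted p = 0.0025) there. The E2, OSU and Enza contrasts of a line share its vehicle libraries.

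**Figure D3:**
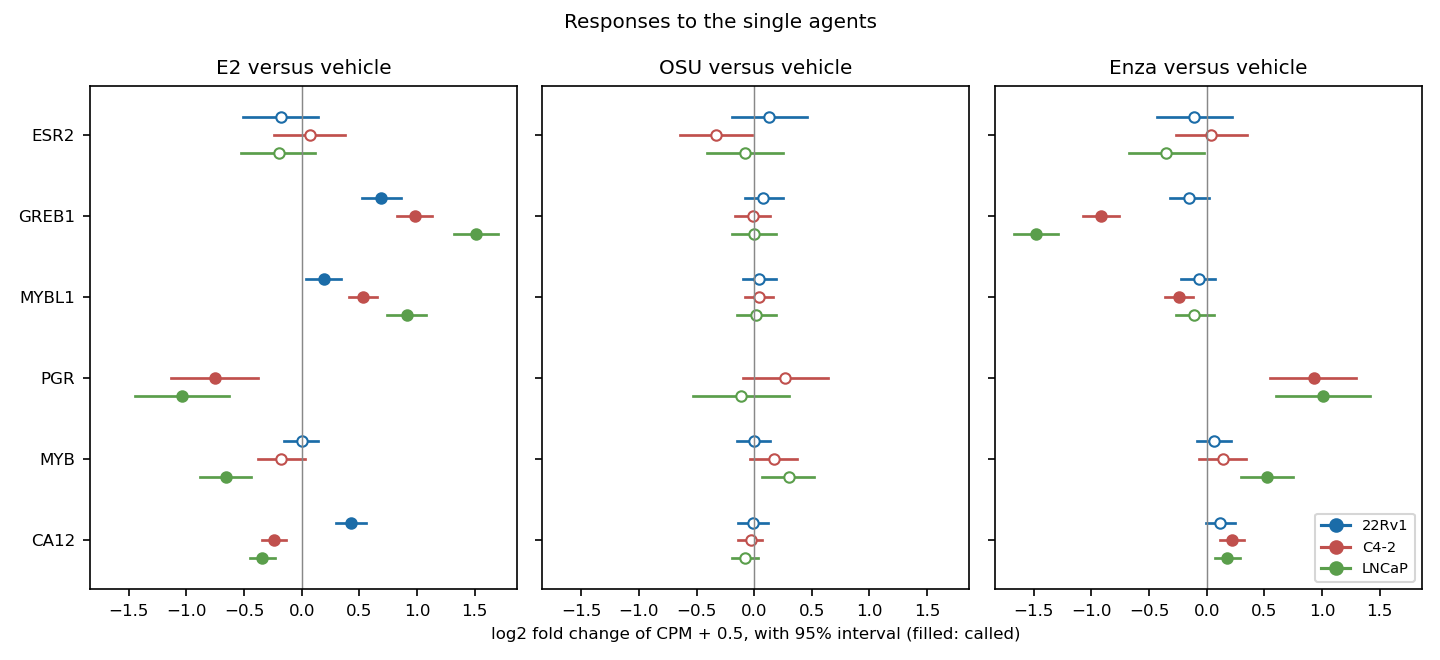
Log2 fold change on log2(CPM + 0.5) with 95% interval of the 6 genes for E2, OSU and Enza against vehicle, by line (colours), filled where called (adjusted p under 0.05). GREB1 with E2 is called in all 3 lines at 0.69, 0.98 and 1.51, and no value for OSU is called.

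OSU-ERb-12 alone called none of the 6 genes against vehicle in any line. MYBL1 measured 21.3, 19.8 and 20.9 CPM with OSU in 22Rv1, 26.1, 23.8 and 22.2 CPM in C4-2, and 12.7, 10.1 and 10.4 CPM in LNCaP. CA12 measured 19.7, 20.8 and 20.5 CPM with OSU in 22Rv1, 49.7, 51.4 and 56.9 CPM in C4-2, and 26.4, 26.6 and 25.7 CPM in LNCaP. MYBL1 overlapped its vehicle libraries in every line, and CA12 in 22Rv1 and C4-2 but not in LNCaP, where the OSU libraries lay just below. In GREB1 the log2 fold change was 0.08 in 22Rv1 (95% interval -0.08 to 0.25), -0.01 in C4-2 (-0.17 to 0.14) and 0 in LNCaP (-0.19 to 0.19). The MYBL1 values were 0.04 (-0.1 to 0.19), 0.04 (-0.08 to 0.16) and 0.02 (-0.15 to 0.19), and the CA12 values -0.01 (-0.14 to 0.12), -0.03 (-0.14 to 0.07) and -0.08 (-0.19 to 0.03), in the same order of lines. The upper limits for GREB1 lie below the E2 value of the same line. PGR was less precise, at 0.27 in C4-2 (-0.1 to 0.64) and -0.11 in LNCaP (-0.53 to 0.3). The largest OSU value for MYB was in LNCaP, 0.3 (0.07 to 0.52), with an unadjusted p of 0.0116 from limma and an adjusted p of 0.674.

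Over all genes OSU called 0 of 14866 in 22Rv1, 0 of 14027 in C4-2 and 2 of 14251 in LNCaP by limma (0%, 0% and 0.014%), with 298, 396 and 946 genes at an unadjusted p under 0.05. The voom alternative called 0 in each line. With enzalutamide present, OSU+Enza called none of the 6 genes against Enza, where 0.101% of all genes were called in 22Rv1, 0% in C4-2 and 0.0982% in LNCaP. GREB1 in 22Rv1 was nearest, at -0.34 ± 0.08 (unadjusted p = 0.000312, adjusted p = 0.128 by limma), with the OSU+Enza libraries at 4.73 to 5.15 CPM all below the Enza libraries at 6.21 to 6.52 CPM. In 1 fit of all 54 libraries this GREB1 difference passed (adjusted p = 0.0411). Against vehicle, GREB1 was lower with OSU+Enza, at -0.49 ± 0.08 in 22Rv1, -0.98 ± 0.07 in C4-2 and -1.56 ± 0.09 in LNCaP (adjusted p = 0.000622, 4.55e-10 and 4.83e-13). PGR was higher by 0.64 ± 0.18 in C4-2 (adjusted p = 0.0286) and 0.84 ± 0.2 in LNCaP (adjusted p = 0.00228), and the C4-2 call was lost without C4-2 vehicle 1 (0.5, adjusted p = 0.165), C4-2 vehicle 3 (0.65, adjusted p = 0.0739), C4-2 OSU+Enza 1 (0.67, adjusted p = 0.064) or C4-2 OSU+Enza 3 (0.51, adjusted p = 0.142). These were the members called there, 1 of 5 in 22Rv1 and 2 of 6 in each of the other lines, where 1.99%, 7.39% and 29.7% of all genes were called.

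Set directly against E2 at the same 100 nM and 12 h, OSU left GREB1 and CA12 at other levels in every line, MYBL1, MYB and PGR in C4-2 and LNCaP, and ESR2 passed in no line. The comparison is 1 pair of compounds in each of 3 lines, with p-values adjusted over all genes of the line. GREB1 was lower with OSU than with E2, at -0.61 ± 0.08 in 22Rv1 (adjusted p = 2.62e-06), -1 ± 0.07 in C4-2 (adjusted p = 4.78e-10) and -1.51 ± 0.09 in LNCaP (adjusted p = 4.86e-13). MYBL1 was lower, at -0.49 ± 0.06 in C4-2 (adjusted p = 2.06e-06) and -0.88 ± 0.08 in LNCaP (adjusted p = 1.89e-09), and was -0.15 in 22Rv1 (adjusted p = 0.142). PGR was higher with OSU than with E2 by 1.03 ± 0.18 in C4-2 (adjusted p = 0.000387) and 0.93 ± 0.2 in LNCaP (adjusted p = 0.000868).

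MYB and CA12 also differed between the compounds. MYB was higher with OSU by 0.96 ± 0.11 in LNCaP (adjusted p = 8.36e-08) and by 0.35 ± 0.1 in C4-2 (adjusted p = 0.0366), the C4-2 call being lost in 9 alternatives. CA12 was lower with OSU, at -0.44 ± 0.06 in 22Rv1 (adjusted p = 7.56e-06) and higher by 0.21 ± 0.05 in C4-2 (adjusted p = 0.0107) and 0.26 ± 0.05 in LNCaP (adjusted p = 0.000434). The C4-2 CA12 call was lost without C4-2 OSU 3 (0.15, adjusted p = 0.118). In all, 2 of 5 members passed in 22Rv1 and 5 of 6 in each of C4-2 and LNCaP, where OSU against E2 called 22%, 5.95% and 24.6% of all genes. With enzalutamide in both arms, GREB1 was lower with OSU+Enza than with E2+Enza, at -0.61 ± 0.08 in 22Rv1, -1.2 ± 0.07 in C4-2 and -2.2 ± 0.09 in LNCaP (adjusted p = 3.01e-06, 7.73e-12 and 9.96e-17). OSU+Enza against E2+Enza called 2 of 5 members in 22Rv1, 4 of 6 in C4-2 and 3 of 6 in LNCaP, where 8.83%, 6.49% and 24.1% of all genes were called. Calls there included MYBL1 in 22Rv1 (-0.24, adjusted p = 0.0299) and C4-2 (-0.29), and CA12 in C4-2 (0.17, adjusted p = 0.0426). PGR was called in C4-2 (0.85) and LNCaP (1.29). The 22Rv1 MYBL1 call was lost with scaling to total reads (adjusted p = 0.0575) and without any one of the E2+Enza libraries (adjusted p = 0.0551 to 0.0951). The C4-2 CA12 call was lost without a filter (adjusted p = 0.0719) and without any one of the OSU+Enza libraries (adjusted p = 0.065 to 0.17).

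Adding enzalutamide to E2 left GREB1 below E2 alone in every line, at -0.57 ± 0.08 in 22Rv1 (adjusted p = 8.27e-05), -0.77 ± 0.07 in C4-2 (adjusted p = 1.21e-07) and -0.87 ± 0.09 in LNCaP (adjusted p = 8.23e-08). Against vehicle, E2+Enza left GREB1 0.64 higher in LNCaP (adjusted p = 3.69e-05), and 0.21 in C4-2 (adjusted p = 0.407) did not pass. That contrast called 1 of 5 members in 22Rv1 (MYBL1, 0.27), 0 of 6 in C4-2 and 1 of 6 in LNCaP, where 13.8%, 0.0784% and 7.42% of all genes were called. The MYBL1 call was lost with scaling to total reads (0.21, adjusted p = 0.0622) and without 22Rv1 vehicle 1 or 2 (adjusted p = 0.1 and 0.0546). MYBL1 was lower with E2+Enza than with E2, at -0.39 ± 0.06 in C4-2 (adjusted p = 9.04e-05) and -0.67 ± 0.08 in LNCaP (adjusted p = 7.4e-07). CA12 was lower with E2+Enza than with E2 in 22Rv1 (-0.32 ± 0.06, adjusted p = 0.00438) and higher in C4-2 (0.22 ± 0.05, adjusted p = 0.00769) and LNCaP (0.3 ± 0.05, adjusted p = 0.000153). In each line CA12 was thus nearer to its vehicle level with both agents than with E2 alone. The C4-2 CA12 call was lost without C4-2 E2+Enza 3 (0.18, adjusted p = 0.0681). PGR and MYB in LNCaP were higher with E2+Enza than with E2 by 0.59 ± 0.2 (adjusted p = 0.049) and 0.33 ± 0.11 (adjusted p = 0.0413), and both calls were lost without any one of the 3 E2 libraries. E2+Enza against E2 called 1.2% of all genes in 22Rv1, 3.46% in C4-2 and 13.5% in LNCaP.

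**Figure D4:**
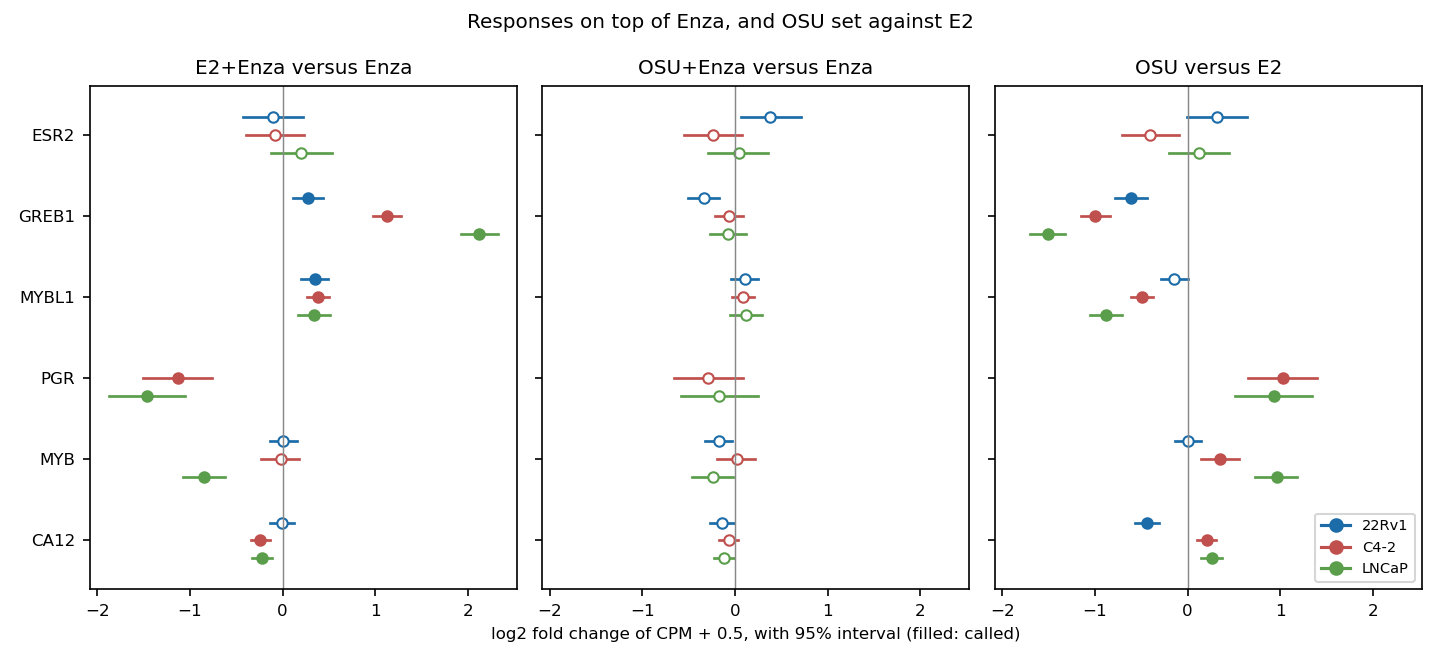
Log2 fold change on log2(CPM + 0.5) with 95% interval of the 6 genes for E2+Enza against Enza, OSU+Enza against Enza and OSU against E2, by line (colours), filled where called (adjusted p under 0.05). GREB1 reaches 2.12 in LNCaP with E2+Enza against Enza, and no value of OSU+Enza against Enza is called.

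The interaction asks whether the E2 effect with enzalutamide present differs from that without it, and 3 member values passed. GREB1 in LNCaP gave 0.61 ± 0.13 (adjusted p = 0.00317), a larger log2 effect of E2 with enzalutamide than without. MYBL1 in LNCaP gave -0.57 ± 0.12 (adjusted p = 0.00193), a smaller effect with enzalutamide. CA12 in 22Rv1 gave -0.44 ± 0.09 (adjusted p = 0.0177), its E2+Enza and Enza libraries lying at 21.8 to 22.5 CPM and 20.5 to 23.7 CPM. That call was lost with scaling to total reads (-0.4, adjusted p = 0.0639) and in 7 of the fits that left out 1 library (adjusted p = 0.0515 to 0.097). The interaction called 0.424% of genes in 22Rv1, 1.5% in C4-2 and 9.05% in LNCaP, and the OSU interaction called 0% in each.

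With vehicle GREB1, MYBL1, MYB and CA12 each differed between at least 1 pair of lines, and ESR2 passed for no pair. PGR had 2 to 4 reads in the 22Rv1 vehicle libraries, against 47 to 86 in C4-2 and 26 to 50 in LNCaP. It was thus lowest in 22Rv1, on too few reads there to size the difference. Between C4-2 and LNCaP PGR passed at 0.45 (adjusted p = 0.0203), but this call was lost in 5 of 14 alternatives. Among these were scaling to total reads (0.36, adjusted p = 0.0592) and voom weights (0.7, adjusted p = 0.0669). The 22Rv1 against LNCaP contrast called 83.3% of 16026 genes, C4-2 against LNCaP 66.7% and 22Rv1 against C4-2 84.7%. GREB1 was lower in 22Rv1 than in LNCaP (-1.27 ± 0.08, adjusted p = 3.77e-19) and C4-2 (-1.11 ± 0.08, adjusted p = 3.79e-17), and C4-2 stood at -0.15 against LNCaP (adjusted p = 0.106). MYB was higher in 22Rv1 than in LNCaP by 1.55 ± 0.09 (adjusted p = 1.41e-20), and CA12 was higher in C4-2 than in LNCaP by 0.94 ± 0.05 (adjusted p = 3.34e-21). The ESR2 values were 0.09 for 22Rv1 against LNCaP (adjusted p = 0.587), -0.12 for C4-2 against LNCaP (adjusted p = 0.514) and 0.21 for 22Rv1 against C4-2 (adjusted p = 0.202).

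For 22Rv1 against C4-2 the median over all genes was 0.218 when scaled to total reads and -0.019 with the authors' sizes. With that scaling ESR2 passed at 0.41 (adjusted p = 0.0158) and MYBL1, -0.21 with the authors' sizes (adjusted p = 0.00569), turned to 0.03 (adjusted p = 0.748). For C4-2 against LNCaP that median was -0.102 with total reads and 0 with the authors' sizes, and GREB1 passed at -0.27 (adjusted p = 0.00886). For 22Rv1 against LNCaP it was 0.093 and -0.027.

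The difference of E2 effects called 11.2% of all genes between 22Rv1 and LNCaP, 8.41% between C4-2 and LNCaP and 28.8% between 22Rv1 and C4-2. The size of the E2 response differed between lines for CA12, MYBL1, GREB1 and MYB by a test over the 3 lines (limma F test, which called 29.1% of all genes). The adjusted p was 8.42e-12 for CA12, 2.05e-06 for MYBL1, 2.21e-06 for GREB1, 0.000541 for MYB and 0.521 for ESR2. PGR, with 0 to 6 reads in each 22Rv1 library, entered that fit only through the other lines and gives no test there. The corresponding OSU test called 0% of genes and none of the 6. As a mean over the 3 lines, E2 raised GREB1 by 1.06 and MYBL1 by 0.54, and lowered MYB, at -0.28, where 23.6% of genes were called. By line, MYB passed only in LNCaP, with 0 in 22Rv1 (adjusted p = 0.973) and -0.18 in C4-2 (adjusted p = 0.315).

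A list of other genes known to be estrogen-induced in breast cancer cells had 28 of 30 genes in the table. Of those that passed the filter, E2 raised 3 and lowered 5 of 22 in 22Rv1, raised 1 and lowered 3 of 18 in C4-2, and raised 2 and lowered 6 of 18 in LNCaP. Over all genes E2 raised 17.1% and lowered 10.6% in 22Rv1, 2.72% and 3.11% in C4-2, and 13.3% and 11.6% in LNCaP. The median log2 fold changes of the list were -0.07, -0.05 and -0.04 in the same order of lines, beside medians over all genes of 0.03, -0.03 and -0.01. In 22Rv1 EGR3, an early growth response factor, fell by 1.31 ± 0.14 (adjusted p = 5.23e-08) and XBP1, a factor of the unfolded protein response, rose by 0.21 (adjusted p = 0.00378). In C4-2 the potassium channel gene KCNK5 fell by 0.37 ± 0.07 (adjusted p = 0.0016) and the chemokine gene CXCL12 rose by 0.45 ± 0.12 (adjusted p = 0.0181). In LNCaP the protein kinase A inhibitor gene PKIB fell by 0.89 ± 0.07 (adjusted p = 1.48e-11) and the ubiquitin ligase gene SIAH2 rose by 0.28 ± 0.06 (adjusted p = 0.000395). TFF1, a classical estrogen readout in breast cancer cells, had 0 to 1.09 CPM over all libraries.

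OSU called 0 genes of this list in any line, and OSU+Enza called 0 against Enza. Enza called 0 higher and 1 lower in 22Rv1, 1 higher and 1 lower in C4-2, and 7 higher and 2 lower in LNCaP, where PKIB rose by 0.73. Over all genes it called 0.659%, 8.44% and 20.4% in the same order of lines. The counts of this list are small and move with single libraries. In LNCaP the 7 genes raised by Enza were 4 without any one of the 3 Enza libraries, and the 2 lowered were 1 without Enza 3. One of the 7, TFF1, averaged 0.927 CPM with Enza and 0.222 CPM with vehicle, and reached 1 CPM in 3 of 18 LNCaP libraries, all with Enza or OSU+Enza. TFF1 thus passed the filter only through groups with enzalutamide, where it was high, so its place among the 7 gives no test. In C4-2 the count raised by E2 was 0 without C4-2 vehicle 1, vehicle 2, E2 1 or E2 2, and the count lowered was 1 without C4-2 E2 3. In 22Rv1 the counts lay between 1 and 3 raised and between 3 and 4 lowered, against 3 and 5 with all libraries, over the fits that left out 1 library.

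Most of a list of 12 androgen-induced prostate genes, all in the table, rose with E2. E2 raised 9 and lowered 1 of the 11 tested in 22Rv1, and raised 11 and lowered 1 of 12 in each of C4-2 and LNCaP. Over all genes E2 raised 17.1% in 22Rv1, 2.72% in C4-2 and 13.3% in LNCaP. STEAP4 is among the raised genes in C4-2 and LNCaP, although it reached 1 CPM in only 3 and 4 of 18 libraries there. With medians of 0.215 and 0.234 CPM, it passed the filter only through those libraries, so its place in these counts gives no test. The median log2 fold changes of the list were 1.03, 0.8 and 1.35 in 22Rv1, C4-2 and LNCaP. FKBP5, a steroid receptor co-chaperone, rose by 2.22 in 22Rv1, 1.42 in C4-2 and 2.56 in LNCaP. The gene lowered in each line was ACP3, prostatic acid phosphatase. Enza raised 0 and lowered 6 in 22Rv1, and raised 1 and lowered 9 in each of C4-2 and LNCaP. Over all genes Enza called 0.659% in 22Rv1, 8.44% in C4-2 and 20.4% in LNCaP. OSU called 0 in each line, and OSU+Enza against Enza lowered 2 in LNCaP, KLK3, at -0.31 and KLK2, at -0.29, both kallikrein genes. The part of these genes in the GREB1 result was not tested.

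**Figure D5:**
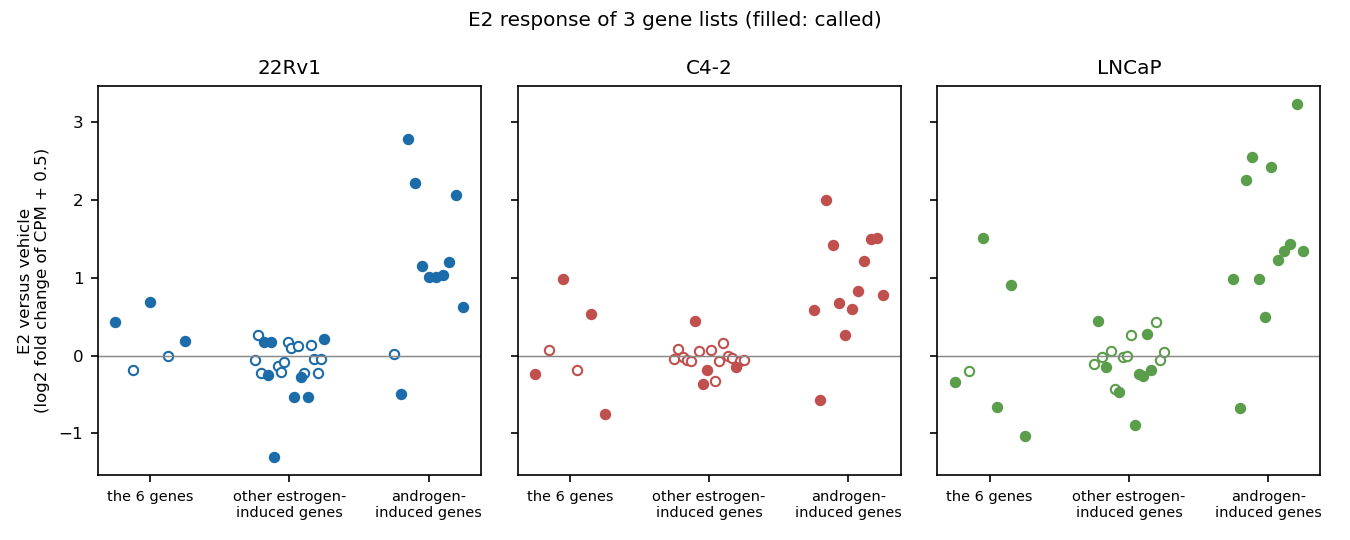
Log2 fold change of E2 against vehicle on log2(CPM + 0.5) for each gene (point) of the 6 genes, of the other estrogen-induced genes and of the androgen-induced genes, by line. The medians of the other estrogen-induced genes are -0.07, -0.05 and -0.04 and those of the androgen-induced genes 1.03, 0.8 and 1.35 in 22Rv1, C4-2 and LNCaP.

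Other steroid and estrogen-related receptor genes were described by their levels, and ESR1 is not analysed here. ESRRA, an orphan estrogen-related receptor, ranged from 81.2 to 143 CPM. GPER1, a membrane estrogen receptor, ranged from 2 to 6.61 CPM. E2 lowered the mineralocorticoid receptor gene NR3C2 in LNCaP, at -0.28 (adjusted p = 0.00777). The glucocorticoid receptor gene NR3C1 had 20.9 to 27.6 CPM in 22Rv1, 0 to 0.275 CPM in C4-2 and 0.109 to 0.481 CPM in LNCaP.

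Of 17 receptor cofactor genes, 16 passed the filter. E2 raised 2 and lowered 5 in 22Rv1, raised 0 and lowered 1 in C4-2, and raised 1 and lowered 3 in LNCaP. It called 27.7%, 5.82% and 24.9% of all genes in the same order of lines, so the C4-2 and LNCaP counts are near the share over all genes. NCOR1, a corepressor, rose by 0.25 in 22Rv1 and 0.31 in LNCaP, and NCOA1, a coactivator, changed by -0.22 in C4-2 and -0.27 in LNCaP. Among relatives of the 6 genes, E2 in 22Rv1 raised the carbonic anhydrase gene CA13 by 1.58 ± 0.14 (adjusted p = 1.3e-09) and the MYB family gene MYBL2 by 0.22 (adjusted p = 0.00249). None of the relatives tested in C4-2 or LNCaP was called with E2.

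Over the 18 group means, after the mean of each line was subtracted, the 6 genes were described by their likeness to each other and to 12505 other genes. These correlations share libraries, treatments and vehicle groups, and are given without a test. GREB1 had a Pearson correlation of 0.83 with MYBL1, -0.94 with PGR, -0.8 with MYB and -0.58 with CA12, and PGR one of 0.82 with MYB and 0.74 with CA12. ESR2 had correlations between -0.42 and 0.17 with the other 5. The genes most like GREB1 were AKAP1 (0.99), ZBTB10 (0.98) and AFF3 (0.98), and those most like PGR were SLFN5 (0.98), MAPKAPK3 (0.98) and ZNF703 (0.97). MYBL1 was most like SLC41A1 (0.98), LONRF1 (0.96) and EPS15 (0.94), MYB most like DAPK1, TMEM181 and NFKB1 (0.93 each), and CA12 most like NADK2 (0.92), JDP2 (0.91) and AGK (0.91). For ESR2 the nearest were CLIP3 (0.85), BAZ2A (0.85) and TTLL3 (0.84), the lowest of the 6 top values.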

How the data were processed

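Total RNA of 54 libraries was sequenced after a stranded total RNA kit, per the labels' protocols. Tools named in the submitters' processing notes are edgeR, featureCounts, FastQC and Trimmomatic, and the build is hg38. No source used here gives their versions. The deposited values are scores that the authors made, log2 CPM with 0.5 reads added, rescaled within each library to the same column sum, as read from the values themselves. They were decoded to whole reads (100% within 0.01 of a whole number) and to CPM on the authors' effective library sizes. Values are scores rather than deposited counts, so no count test was run in place of the planned log2 fit.

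Genes that reached 1 CPM in 3 or more libraries entering a fit were tested by limma 3.58.1 (R 4.3.3, trend) on log2(CPM + 0.5), 18 libraries per line or all 54 for differences between lines, with Benjamini-Hochberg adjustment over all genes of a comparison and calls at an adjusted p under 0.05. The script was tested on simulated data. Libraries held 32819568 to 52417050 reads, and a floor of 3 reads covers counting error only. Of 19225 IDs, 18917 matched RefSeq. Groups came from sample titles and treatment labels.

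Alternatives changed the pseudocount, filter, scaling and weights, blocked on replicate number, fitted all libraries together, or left out libraries. The 6 genes and the gene lists were chosen with earlier results of these data known, so their counts beside the shares over all genes are descriptive. Not every comparison names all 6 genes, and of a list at most the 4 called genes with the smallest p are named. Sequences and windows are from RefSeq GRCh38.p14. ESR1 is not analysed here.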

Additional observations from a re-analysis of the deposited data

Results flagged for a closer look

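The response to estradiol was set between pairs of lines by limma, as a difference of log2 fold changes (E2 against vehicle) with Benjamini-Hochberg adjustment over all genes, and 9 differences of GREB1, MYBL1, MYB and CA12 passed. They are flagged because the same contrast gave unequal effects in different lines. The 22Rv1 and LNCaP effects differed in 11.2% of all genes, the C4-2 and LNCaP effects in 8.41%, and the 22Rv1 and C4-2 effects in 28.8%.

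GREB1 rose less in 22Rv1 than in LNCaP, with a difference of -0.82 ± 0.12 (adjusted p = 8.05e-07), and less in C4-2 than in LNCaP, with -0.53 ± 0.12 (adjusted p = 0.00203). MYBL1 rose less in 22Rv1 than in LNCaP, at -0.72 ± 0.1 (adjusted p = 5.45e-07), less in C4-2 than in LNCaP, at -0.38 ± 0.1 (adjusted p = 0.0122), and less in 22Rv1 than in C4-2, at -0.34 ± 0.1 (adjusted p = 0.0118). The MYBL1 difference between C4-2 and LNCaP was lost with scaling to total reads (-0.3, adjusted p = 0.0783) and without the 4 libraries that stand apart (-0.35, adjusted p = 0.0537). The one between 22Rv1 and C4-2 was lost without those 4 (-0.28, adjusted p = 0.0956) and without 22Rv1 vehicle 3 (-0.26, adjusted p = 0.055).

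CA12 differed between 22Rv1 and LNCaP by 0.78 ± 0.07 (adjusted p = 2.52e-11) and between 22Rv1 and C4-2 by 0.67 ± 0.07 (adjusted p = 2.5e-09), the effect being positive in 22Rv1 and negative in the other lines. MYB differed between 22Rv1 and LNCaP by 0.66 ± 0.13 (adjusted p = 0.000347) and between C4-2 and LNCaP by 0.48 ± 0.13 (adjusted p = 0.0144). The MYB difference between C4-2 and LNCaP was lost without the libraries that stand apart (0.39, adjusted p = 0.156), without LNCaP vehicle 1 (adjusted p = 0.0523) and without C4-2 vehicle 1 (adjusted p = 0.0691).

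The fitted values of PGR were 0.91 ± 0.24 for 22Rv1 against LNCaP (adjusted p = 0.00833) and 0.62 ± 0.24 for 22Rv1 against C4-2 (adjusted p = 0.0487), and give no test of a difference in response. PGR had 0 to 6 reads per 22Rv1 library and entered the fit only through C4-2 and LNCaP. The one between 22Rv1 and C4-2 was lost without any one of the 22Rv1 vehicle or E2 libraries (adjusted p = 0.06 to 0.0927). With voom weights neither passed (0.79, adjusted p = 0.734, and -0.37, adjusted p = 0.831).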

How the results depend on the processing

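Of 4860 values of the 6 genes recomputed under the alternatives, 4723 kept their side of the threshold (124 of them uncalled values whose sign changed), 110 were lost, 25 were gained and 2 called values changed sign. The sign changes were MYBL1 in 22Rv1 against C4-2 with vehicle (0.03 with scaling to total reads, against -0.21) and PGR, too low in 22Rv1 to test, in the E2 effect of 22Rv1 against C4-2 (-0.37 with voom weights, against 0.62). MYBL1 with E2 in 22Rv1 (0.19) did not pass without a filter (0.19) or with total reads (0.13), and lay between 0.13 and 0.27 with 1 library left out. PGR with E2 in C4-2 (-0.75) lay between -0.89 and -0.62 with 1 library left out.

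The number of all genes called with E2 in 22Rv1 was 4118, and 2193 to 3999 with 1 library left out, being 2193 without vehicle 1, 2598 without E2 1 and 2565 without E2 2. In C4-2 it was 817, 396 without the libraries that stand apart, and 521 to 868 with 1 library left out, being 541 without vehicle 1 and 521 without E2 3. OSU called 6 genes in 22Rv1 and 1 in C4-2 in the fit of all libraries, against 0 and 0. In LNCaP it called 2, but 0 without a filter, with voom weights or in the fit of all libraries, 1 with total reads, and 0 to 12 with 1 library left out. Except where the alternative tests more genes or uses fewer libraries, the cause was not tested.

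With the replicate number as a block, OSU in LNCaP called 1 gene, no call of the 6 genes was lost, and MYB with OSU+Enza against vehicle in LNCaP passed (0.28, adjusted p = 0.0446 by limma). The deviations of libraries that share a number correlated from -0.29 to 0.22 in 22Rv1, -0.45 to 0.37 in C4-2 and -0.12 to 0.22 in LNCaP, over 0.1 in 6, 9 and 5 of 45 pairs, and 9, 8 and 6 of 18 libraries were closest to their own number. Not every pair was over 0.1, so the numbers were not taken as a pairing. Depth limits PGR in 22Rv1, where 0 to 6 reads allow no test.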
